A study of Mus musculus with 48 samples.

Results

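The genes described here belong to the hypoxia-inducible factor (HIF) system, and they were followed in the lungs of mice that breathed almost pure oxygen. They were 3 genes for the oxygen-regulated alpha subunits (Hif1a, Epas1 and Hif3a), 2 genes for prolyl hydroxylases (Egln1 and Egln3) and 5 genes known as HIF targets (Vegfa, Bnip3, Pdk1, Ndrg1 and Ankrd37). The members were found by their symbols, which matched 10 of the 47561 genes in the table. All 10 passed the filter on low values, which kept a gene that reached 1 FPKM in 3 or more of 48 mice, and were tested among 16994 genes. Hif3a passed through 4 mice only, 1 of them given saline.

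HIF alpha subunits pair with the beta subunit Arnt and bind DNA at short sites with the core letters ACGTG or GCGTG. When oxygen is plentiful, prolyl hydroxylases modify the alpha subunits, the Vhl complex recognises the modified protein, and it is degraded, so the system is known chiefly for control of protein stability. In the lung, Epas1 is known for its high level in endothelium, and Vegfa, made largely by the alveolar epithelium, acts on endothelial receptors. Only RNA was measured here, and the amount of each protein is not known.

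Lung RNA came from 48 adult mice, 1 library per mouse, in 16 groups of 3. The groups combine strain (C3H, labelled C3H/hen, or C57B, labelled C57Bl/6), sex (M or F), a single intraperitoneal injection (saline, SAL, or 25 mg/kg ATG) and 96 h in room air (RA) or over 95% oxygen (hyperoxia, HYP). ATG is aurothioglucose, a gold compound that inhibits thioredoxin reductase. No genetic alteration is named in the labels, and all groups shared the time of 96 h and an injection. The values are FPKM (the sequenced fragments of a gene divided by its transcript length and by the size of the library), so levels can be compared between genes per length. Each mouse is named by strain, sex and its number, for example C57BM 19.

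The sum of FPKM per mouse ranged from 510933 to 748290, and the relative depth of the libraries, read from the values of single reads, ranged from 0.774 to 1.24 times the median. Scgb1a1, the club cell secretory transcript, took 10.4% to 30.2% of the sum in room air and 1.2% to 7.17% in hyperoxia. Within groups the correlation of log2 values ranged from 0.933 to 0.979, and the nearest library of every mouse had the same air and strain. The lowest median correlations with the own group were those of the 3 saline C3H males in room air (C3HM 2 0.943, C3HM 1 0.945 and C3HM 3 0.955), C57BM 19 (0.946) and C3HF 33 (0.949). Calls that changed without one of these mice, without both C3HM 1 and C3HM 3 or without both C57BM 19 and C3HF 33 are named beside the result. No gene of chromosome X, Y or M had a value above 0 in any mouse, so the labelled sex could not be checked. In saline mice under hyperoxia, 32.4% of all genes tested were higher and 29.1% lower by limma. The cell type markers went as follows, as higher and lower out of those tested. Alveolar type 1 had 1 and 6 of 9, alveolar type 2 had 1 and 7 of 8, club 0 and 3 of 3, fibroblast 1 and 1 of 6, alveolar macrophage 4 and 2 of 6, and monocyte 1 and 2 of 4. B cell and T cell markers each had 0 and 4 of 4, erythroid 0 and 4 of 4, and cardiac muscle 0 and 4 of 5. Endothelial and neutrophil markers are given beside the members.

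Promoter sequences are shown for the 5 members whose first RefSeq window held ACGTG before the start site, since this is the core of the HIF site. RefSeq windows of GRCm38.p6, from 250 bases before to 50 bases after a start site, were found for 8 of the 10 members, and Epas1 and Ndrg1 had no window. ACGTG on either strand was found in a window of 6 members (Hif1a, Egln1, Egln3, Vegfa, Bnip3 and Ankrd37), against 19.6% of all 32851 windows. GCGTG on either strand was found in a window of 6 members (Hif3a, Egln1, Vegfa, Bnip3, Pdk1 and Ankrd37), against 32.4% of all windows. The counts are of members, with 2 windows each for Vegfa and Pdk1, whereas the shares are of single windows. Vegfa had its matches only in the second of its 2 windows, whose start site lies inside the gene. Its ACGTG lies 211 bases before that site, and no stretch of it is printed. The printed windows of Hif1a and Ankrd37 also lie wholly inside the gene. On its strand, Hif1a begins at 73901375 and its window at 73907617, and Ankrd37 begins at 46005707 and its window at 46000100. Stretches that hold ACGTG and lie wholly before the start site are printed with every match to ACGTG or GCGTG, on either strand, in capitals. Ankrd37 also held GCGTG matches that began 155 and 152 bases before its start site, and their stretch is not printed. Overlapping matches run together, as in CACGTG, which holds ACGTG on both strands.

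Hif1a: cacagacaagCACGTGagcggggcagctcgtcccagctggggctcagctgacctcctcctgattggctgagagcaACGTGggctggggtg
Egln1: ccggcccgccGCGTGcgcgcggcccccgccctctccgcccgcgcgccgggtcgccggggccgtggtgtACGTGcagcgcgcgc
Egln3: tgcatctcagACGTGagatccaggt
Bnip3: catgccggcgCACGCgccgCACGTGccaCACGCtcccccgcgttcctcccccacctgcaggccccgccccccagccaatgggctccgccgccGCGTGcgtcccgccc
Ankrd37, nearest the start: gtgtttgggtACGTGa
Ankrd37, farthest from the start: cccagcagtACGTGcctagctcgg

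The Hif1a stretch is chr12:73907722-73907811 on the plus strand, and that of Egln1 is chr8:124949308-124949390 on the minus strand. The Egln3 stretch is chr12:54204089-54204113 and the Bnip3 stretch chr7:138909527-138909633, both on the minus strand. The Ankrd37 stretches are chr8:45999851-45999866 and chr8:46000077-46000100, also on the minus strand. In the stretches printed, the ACGTG letters nearest the start site began 70 bases before it in Hif1a, 68 in Egln1, 229 in Egln3, 107 in Bnip3 and 6 in Ankrd37. A match is a description of letters and not of binding.

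In saline mice, hyperoxia went with more Hif1a and Ndrg1 RNA and with less Epas1, Egln1, Vegfa and Bnip3 RNA. By limma with Benjamini-Hochberg adjustment over 16994 genes, 3 of the 10 genes were higher in hyperoxia (Hif1a, Ndrg1 and Hif3a), where 32.4% of all genes tested were higher. A further 4 were lower (Epas1, Egln1, Vegfa and Bnip3), where 29.1% of all genes were lower. Egln3, Pdk1 and Ankrd37 did not pass the threshold. Hif1a and Epas1 went in opposite directions, and among the 5 targets 1 was higher, 2 were lower and 2 did not pass. The shares for the 10 genes lie near those of all genes. In whole lung, fewer cells of a type and less RNA per cell cannot be told apart.

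**Figure D1:**
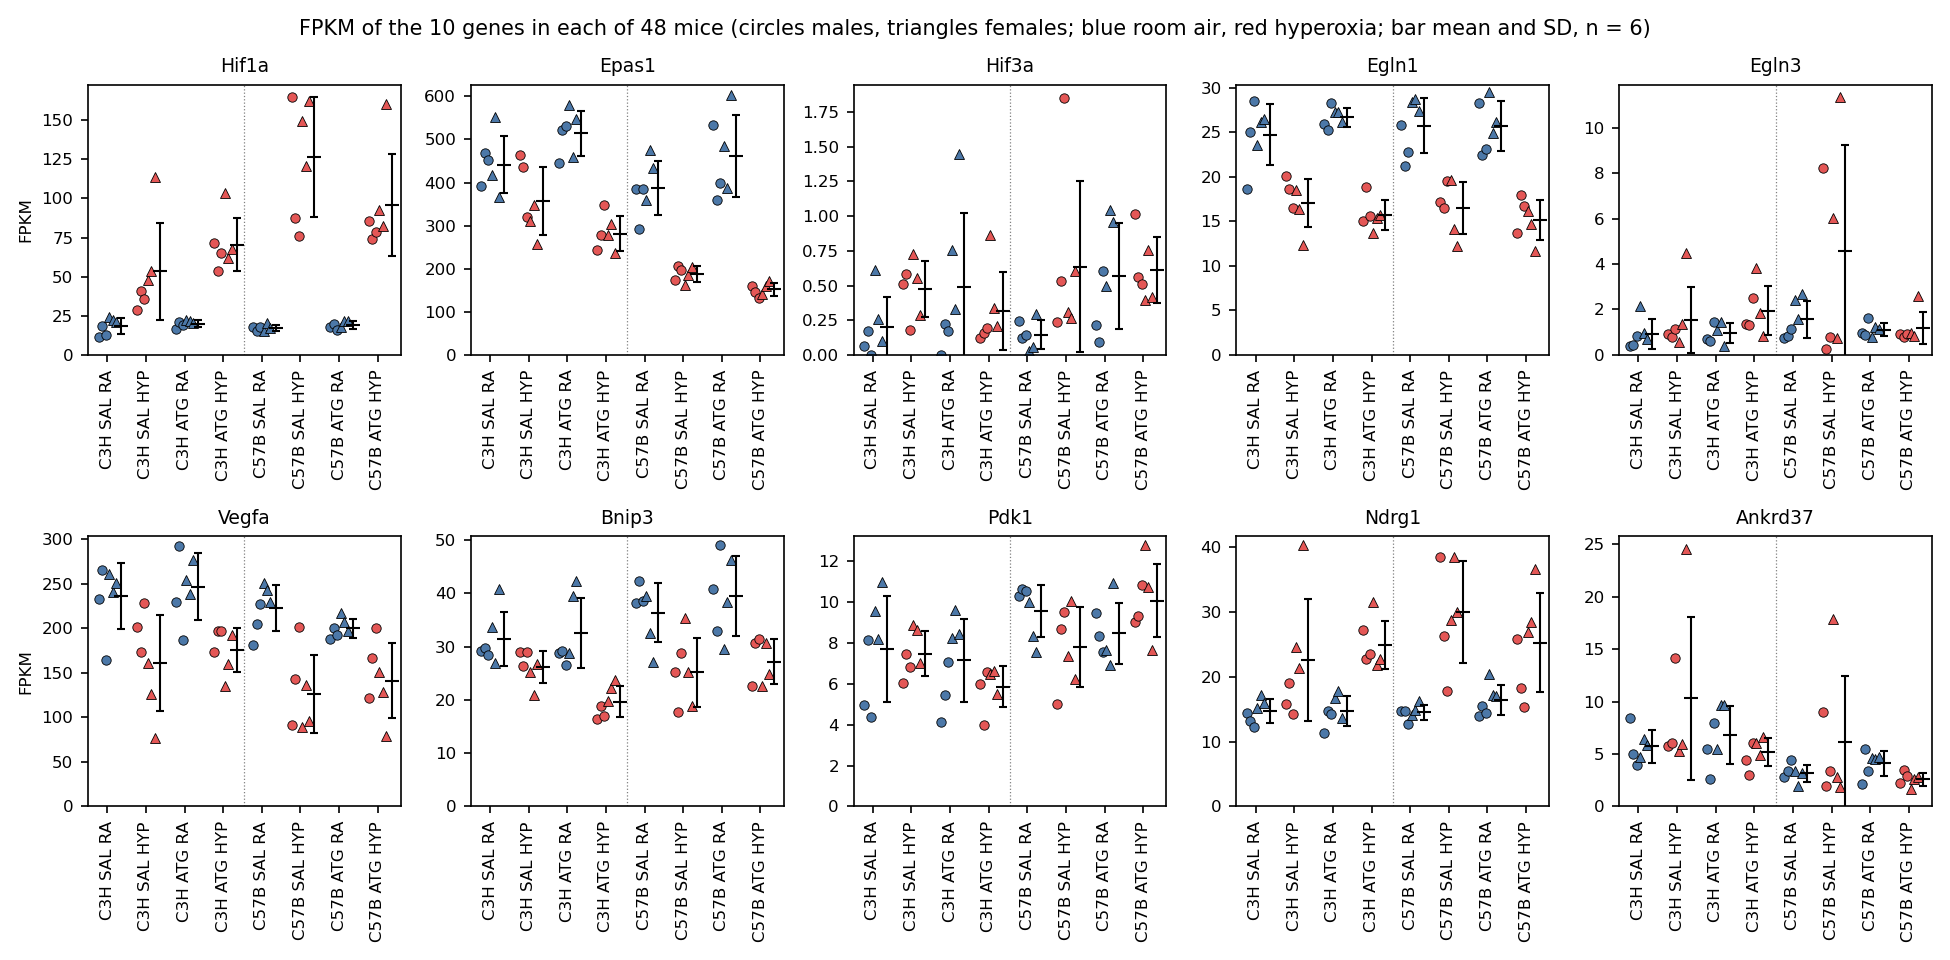
FPKM (linear axis from 0) of the 10 genes in each mouse, in 8 columns by strain, injection and air. Circles are males, triangles females, blue room air and red hyperoxia, and the bar gives the mean and SD of 6 mice. Hif1a in saline hyperoxia mice runs from 29.0 to 165 FPKM, all above the highest room-air value of 24.4, while Egln3 and Ankrd37 are high in a few mice only.

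Hif1a (chr12:73901375-73947530, plus strand) encodes the alpha subunit HIF-1 alpha. In saline room air its FPKM was 11.8 at the lowest, 17.8 at the median and 24.4 at the highest of 12 mice. In saline hyperoxia it was 29.0, 81.7 and 165, so that all 12 mice lay above the room-air range. The difference was 2.06 ± 0.12 (SE) on the log2(FPKM + 1) scale, with an adjusted p of 1.94e-16 by limma. An antisense gene, Gm15283, lies on the opposite strand of Hif1a and was listed at a median of 0.246 FPKM in saline room air and 1.86 FPKM in hyperoxia. Whether the counting used strand is not stated in the sources used here, so reads of the pair cannot be told apart.

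In saline mice the Hif1a response was larger in C57B than in C3H, and the strain difference was not tested in ATG mice. In C3H, the 6 saline hyperoxia mice had 29.0 FPKM (C3HM 7), 40.5 (C3HM 8), 35.6 (C3HM 9), 47.8 (C3HF 31), 53.6 (C3HF 32) and 114 (C3HF 33). In C57B they had 165 FPKM (C57BM 19), 87.5 (C57BM 20), 75.9 (C57BM 21), 149 (C57BF 43), 121 (C57BF 44) and 162 (C57BF 45). The strains overlapped through C3HF 33 alone. The rise was 1.38 ± 0.18 in C3H (adjusted p = 8.11e-08) and 2.74 ± 0.18 in C57B (adjusted p = 1.93e-15), both on the log2(FPKM + 1) scale with the SE. The difference between strains, C3H minus C57B, was -1.36 ± 0.25 with an adjusted p of 0.000262 by limma. The median of all genes in this difference was 0.147, and it was 0.00214 after median ratio scaling, under which the Hif1a difference kept its direction and its call. Of all genes, 17.6% passed in this difference, and 2 of the 10 did, Hif1a and Epas1.

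Epas1 (chr17:86753700-86833410, plus strand), which encodes HIF-2 alpha, was the most abundant of the 10, with a median of 360 FPKM over 48 mice, above 99% of the genes tested. In saline mice its FPKM was 292, 405 and 553 in room air and 161, 232 and 464 in hyperoxia (lowest, median and highest of 12). Of the 12 hyperoxia mice, 7 lay below the room-air range, all 6 C57B mice and C3HF 33. The difference was -0.68 ± 0.09 (SE, log2) with an adjusted p of 2.18e-08 by limma.

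By strain, Epas1 was 442 ± 66.3 FPKM in C3H room air and 357 ± 79.1 in C3H hyperoxia (SD, n = 6 each), with overlapping groups. In C57B it was 388 ± 62.7 in room air and 188 ± 17.8 in hyperoxia (SD, n = 6 each), without overlap. The change was -0.32 ± 0.12 in C3H (adjusted p = 0.0328) and -1.03 ± 0.12 in C57B (adjusted p = 6.45e-09). The C3H call was lost under 9 of 21 alternatives, among them the fit without C3HM 1 and C3HM 3 (-0.38, adjusted p = 0.0626), that without C57BM 19 and C3HF 33 (-0.27, adjusted p = 0.103), and each without C3HM 2, C3HM 3, C3HM 9, C3HF 26 or C3HF 33 (-0.31 to -0.24). The strain difference itself, 0.71 ± 0.17 with an adjusted p of 0.00452, kept its call under 33 of 33 alternatives.

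Most endothelial markers were lower in saline hyperoxia, as Epas1 was, but not all. Of 10 such markers, 6 were lower and 2 higher by limma, where 29.1% of all genes tested were lower and 32.4% higher. After quantile normalization 7 were lower and 0 higher, where 5103 of 16994 genes were lower and 5290 higher. Their summed FPKM in C57B ranged from 1566 to 1956 in saline room air and from 1206 to 1613 in hyperoxia, and in C3H from 1922 to 2807 and from 2074 to 2770. Tek, an endothelial receptor kinase, was the gene whose 16 group means followed those of Epas1 most closely (Pearson r of 0.984), ahead of Samd14 (0.979) and Tmem100 (0.978). Tek fell from 70.8 ± 15.8 to 30.6 ± 18.1 FPKM (SD, n = 12 each), by 1.40 on the log2 scale (adjusted p = 8.47e-15). Because Tek was picked by its likeness to Epas1 over these group means, its fall is a description and not separate evidence. None of the 10 markers was at 0 throughout a group, and Pecam1 gave -0.00 (adjusted p = 0.991). The part of endothelial content in the Epas1 values was not tested.

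Hif3a (chr7:17031507-17062427, minus strand), which encodes an alpha subunit with forms known to oppose the others, was near the limit of detection. Its FPKM in saline mice was 0, 0.133 and 0.609 in room air and 0.183, 0.522 and 1.85 in hyperoxia (lowest, median and highest of 12), and the groups overlapped. The difference was 0.38 ± 0.11 (SE, log2) with an adjusted p of 0.00487 by limma. With a pseudocount of 0.1 it was 1.26, since values below 1 FPKM are compressed by a pseudocount of 1. In C57B the difference was 0.45 (adjusted p = 0.0177), and without C57BM 21, the mouse with 1.85 FPKM, it was 0.27 (adjusted p = 0.119). Without C57BF 45 it was 0.40 (adjusted p = 0.051). Hif3a was not tested under the filter of 24 mice. With only the mice of the comparison it was not tested either, since C57BM 21 alone of the saline mice reached 1 FPKM.

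Egln1 (chr8:124908587-124949324, minus strand) encodes Phd2, the main oxygen-sensing prolyl hydroxylase. Its FPKM in saline mice was 18.6, 25.9 and 28.7 in room air and 12.2, 16.9 and 20.1 in hyperoxia, with 9 of 12 hyperoxia mice below the room-air range. The difference was -0.57 ± 0.07 (SE, log2) with an adjusted p of 3.52e-08. It was -0.51 ± 0.11 in C3H (adjusted p = 0.000152) and -0.62 ± 0.11 in C57B (adjusted p = 5.15e-06), and the strain difference of 0.10 had a 95% interval from -0.20 to 0.41 (adjusted p = 0.674). Egln1 kept its call under 33 of 33 alternatives.

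Egln3 (chr12:54178981-54203860, minus strand) encodes Phd3, a prolyl hydroxylase whose gene is itself known as a HIF target. In saline room air its FPKM was 0.407 at the lowest, 0.899 at the median and 2.70 at the highest. In saline hyperoxia, C57BF 45 had 11.3 FPKM, C57BM 19 had 8.23, C57BF 43 had 6.02 and C3HF 33 had 4.48. The other 8 mice ranged from 0.271 to 1.36 FPKM, within or below the room-air range. The difference was 0.48 ± 0.26 (SE, log2) with an adjusted p of 0.104 by limma. It passed the threshold under quantile normalization (0.60, adjusted p = 0.0405), without C57BM 20 (0.62, adjusted p = 0.0315) and without C57BF 44 (0.68, adjusted p = 0.0103), both mice with low values.

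The 4 mice with high Egln3 were also those with the most Hif1a in their strain. Neutrophil markers (S100a8, S100a9, Retnlg, Csf3r, Cxcr2 and Il1r2) were high in the same mice. C57BM 19 had a summed FPKM of 5061, C3HF 33 had 6375, and the sums of C57BF 43 and C57BF 45 were 4083 and 4227. It was 2186 in C57BF 44, 1488 in C3HF 32 and 165 to 286 in the other 6, against 135 to 777 in saline room air. All 6 markers were higher in saline hyperoxia, where 32.4% of all genes tested were. Without C57BM 19 and C3HF 33, 4 of 6 were higher, where 5544 of 16942 genes were. The median sum in saline room air and hyperoxia was 188 and 206 FPKM in C3H, and 462 and 3135 FPKM in C57B. In C57B mice given ATG in room air the sum reached 3627 FPKM in C57BM 18. Egln3 lay between 0.808 and 1.63 FPKM in that set, with the highest value in C57BM 18. Hif1a lay between 16.0 and 22.0 FPKM in the same set, with the lowest value in C57BM 18. Neutrophils are white blood cells that enter the injured lung. The 4 mice with high Egln3 also had the lowest alveolar type 1 sums of saline hyperoxia. These were 1985 FPKM in C3HF 33, 2610 in C57BF 43, 2856 in C57BM 19 and 2985 in C57BF 45. Summed alveolar type 2 markers were lowest in C3HF 33 (5839), C57BF 43 (6803) and C57BF 45 (7527), but not in C57BM 19 (10690). The part of neutrophils and of other cells in the values of Hif1a, Egln3 and the targets was not tested.

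**Figure D2:**
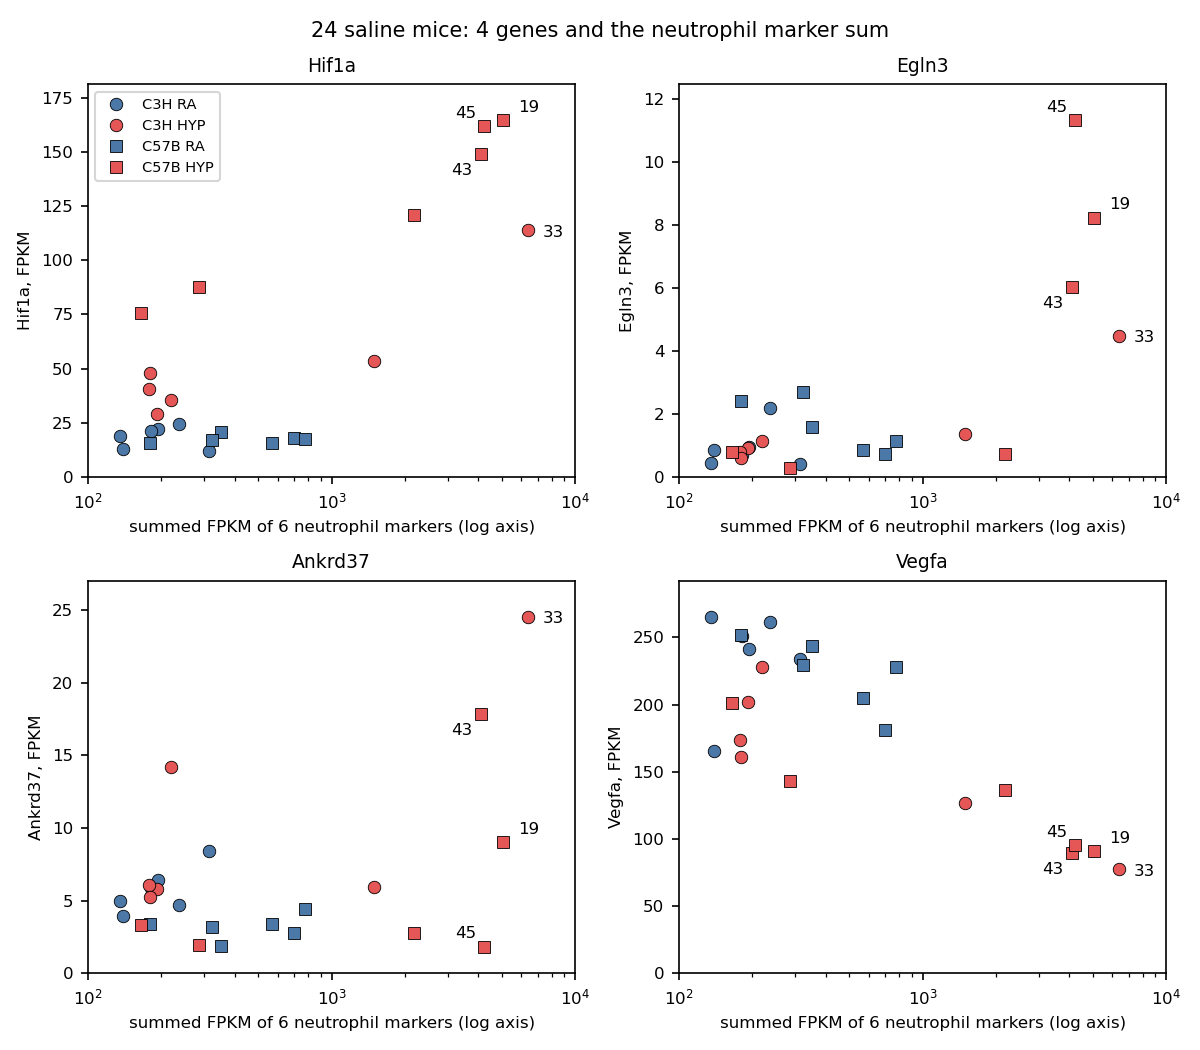
FPKM of Hif1a, Egln3, Ankrd37 and Vegfa (linear axes from 0) against the summed FPKM of 6 neutrophil markers (log axis) in 24 saline mice. Circles are C3H, squares C57B, blue room air and red hyperoxia, and numbers name C57BM 19, C3HF 33, C57BF 43 and C57BF 45. These 4 mice hold the highest Egln3 (4.48 to 11.3 FPKM) and the lowest Vegfa (77.5 to 95.5 FPKM) of the 24, whereas Ankrd37 is at 1.83 FPKM in C57BF 45 and 24.6 in C3HF 33.

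Vegfa (chr17:46016993-46032369, minus strand), the main vascular growth factor, fell with hyperoxia. Its FPKM in saline mice was 165, 238 and 265 in room air and 77.5, 140 and 228 in hyperoxia, and 8 of 12 hyperoxia mice lay below the room-air range. The 4 lowest were C3HF 33 (77.5), C57BF 43 (89.8), C57BM 19 (91.1) and C57BF 45 (95.5), the mice with high Egln3. The difference was -0.74 ± 0.12 (SE, log2) with an adjusted p of 1.65e-06. In C3H it was -0.61 ± 0.17 (adjusted p = 0.00374) and in C57B -0.87 ± 0.17 (adjusted p = 3.62e-05), with a strain difference of 0.26 (95% interval -0.22 to 0.75, adjusted p = 0.482). Summed alveolar type 1 markers ranged from 3872 to 7865 FPKM in saline room air and from 1985 (C3HF 33) to 5467 in hyperoxia. Their part in the Vegfa values was not tested.

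Vegfa gave the largest sex difference of the hyperoxia response among the 10. In females it was 246 ± 11.0 FPKM in saline room air and 115 ± 32.1 in hyperoxia, and in males 213 ± 36.8 and 173 ± 49.6 (SD, n = 6 each). All 6 females in hyperoxia lay below the females in room air, whereas males overlapped. The difference of the responses, males minus females, was 0.81 ± 0.24 (SE, log2, 95% interval 0.32 to 1.29) with an adjusted p of 0.0601 by limma, which does not pass. Without C57BM 19, C3HM 2, C3HF 31 or C57BF 44 it passed, and without C57BM 19 and C3HF 33 it passed too, whereas under median ratio scaling it was 0.64 (adjusted p = 0.106). In this comparison 0 of 10 genes passed, where 1.8% of all genes did, and the count at an unadjusted p under 0.05 was 3776 of 16994. The median of all genes in it was 0.133.

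Bnip3 (chr7:138890836-138909519, minus strand) encodes a mitochondrial protein that promotes mitophagy. Its FPKM in saline mice was 27.0, 33.1 and 42.3 in room air and 17.8, 25.8 and 35.3 in hyperoxia, with 8 of 12 hyperoxia mice below the room-air range. The difference was -0.39 ± 0.10 (SE, log2) with an adjusted p of 0.000575. It was -0.53 in C57B (adjusted p = 0.00099) and -0.25 in C3H (adjusted p = 0.139). The value is uncertain, since 20.5% of its 30-base sequences also occur in transcripts of other genes, mostly processed copies such as Gm16439. Gm16439 was listed at a median of 11.2 FPKM in saline room air and 8.96 in hyperoxia.

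Pdk1 (chr2:71873224-71903858, plus strand) encodes a kinase that holds back pyruvate dehydrogenase. Its FPKM was 4.35, 8.94 and 11.0 in saline room air and 5.03, 7.39 and 10.0 in saline hyperoxia, and no hyperoxia mouse lay outside the room-air range. The difference was -0.14 ± 0.10 (95% interval -0.35 to 0.07, adjusted p = 0.259). Without C3HM 1 and C3HM 3, the mice with the lowest room-air values (4.97 and 4.35 FPKM), it was -0.25 (adjusted p = 0.0488).

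Ndrg1 (chr15:66929318-66969640, minus strand), a stress-responsive gene of the N-myc downstream regulated family, rose. Its FPKM in saline mice was 12.3, 14.7 and 17.2 in room air and 14.3, 25.5 and 40.3 in hyperoxia, with 10 of 12 hyperoxia mice above the room-air range. The difference was 0.73 ± 0.10 (SE, log2) with an adjusted p of 8.39e-08. In C57B it was 0.95 ± 0.14 (adjusted p = 5.33e-07) and in C3H 0.51 ± 0.14 (adjusted p = 0.00387). The C3H value was 0.36 under median ratio scaling (adjusted p = 0.067) and 0.35 under quantile normalization (adjusted p = 0.0535). The strain difference of -0.44 (95% interval -0.85 to -0.03) did not pass (adjusted p = 0.125), but under median ratio scaling it was -0.63 (adjusted p = 0.0485), and it also passed with array weights and without C57BM 21 or C3HF 33. Gm17035 lies on the opposite strand of Ndrg1 and was listed at a median of 4.14 FPKM in saline room air and 12.3 in hyperoxia.

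Ankrd37 (chr8:45996902-46005707, minus strand), which encodes a small ankyrin repeat protein, was high in a few mice. Its FPKM in saline room air was 1.91, 4.19 and 8.40. In saline hyperoxia, 4 mice were above this range, C3HF 33 (24.6), C57BF 43 (17.8), C3HM 9 (14.2) and C57BM 19 (9.03), and the other 8 ranged from 1.83 to 6.07. The difference was 0.48 ± 0.25 (SE, log2) with an adjusted p of 0.0887. Without C57BF 45, the lowest mouse, it was 0.61 (adjusted p = 0.0269), without C57BM 20 0.58 (adjusted p = 0.0428) and without C3HF 31 0.57 (adjusted p = 0.0461). Ankrd37 overlaps Ufsp2 on the opposite strand, which was listed at medians of 12.5 FPKM in saline room air and 15.3 in hyperoxia.

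**Figure D3:**
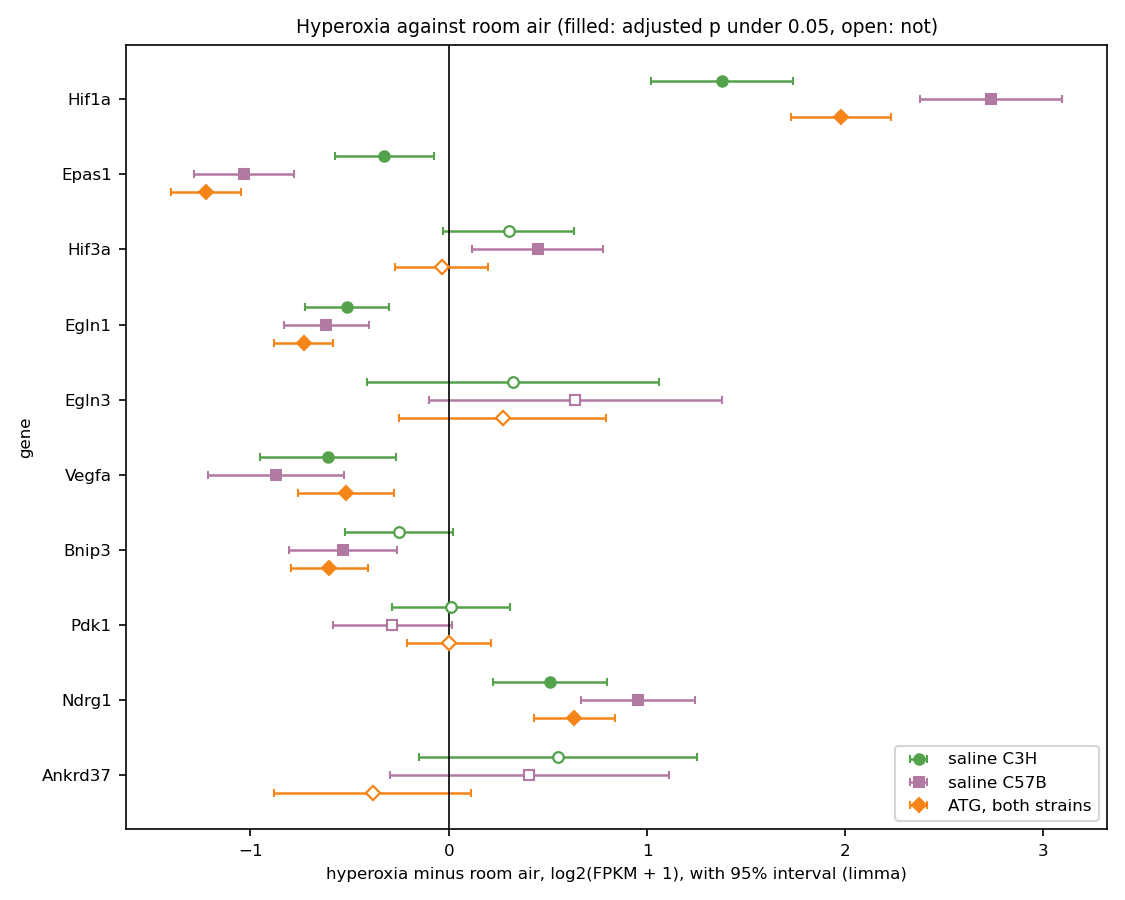
Hyperoxia minus room air on the log2(FPKM + 1) scale with 95% intervals from limma, for saline C3H (12 mice), saline C57B (12 mice) and ATG mice of both strains (24 mice). Filled symbols have an adjusted p under 0.05. Hif1a stands at 1.38, 2.74 and 1.98 and Epas1 at -0.32, -1.03 and -1.23 in these comparisons, and Pdk1 is open in all of them.

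Counted by strain, 2 of the 10 genes were higher and 3 lower in C3H hyperoxia, where 27.3% of all genes were higher and 13.9% lower. In C57B, 3 were higher and 4 lower, where 26.4% of all genes were higher and 31% lower. The split of all calls in C3H was 66.3% higher, and 48.2% higher after median ratio scaling. Under median ratio scaling and under quantile normalization, 1 of the 10 was higher and 4 were lower in C3H. Ndrg1 no longer passed, and Bnip3 did (-0.41, adjusted p = 0.0162 under median ratio scaling). Under median ratio scaling 3322 of 16976 genes were higher and 3577 lower in C3H. Under quantile normalization 3483 of 16994 were higher and 3363 lower. With 1 mouse left out, 6 to 9 of the 10 passed in C57B, where 9211 to 9749 of all genes tested did. Egln3 passed as higher without C57BM 20, without C57BF 44 and under quantile normalization, and Pdk1 passed as lower without C57BM 21 or C57BF 44.

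In ATG mice Hif1a and Ndrg1 rose and Epas1, Egln1, Vegfa and Bnip3 fell in hyperoxia. Of the 10 genes, 2 were higher and 4 lower, where 33.6% of all genes were higher and 24.7% lower. Hif1a in ATG mice was 16.0, 20.0 and 22.1 FPKM in room air and 53.5, 76.3 and 160 in hyperoxia, again without overlap, a difference of 1.98 ± 0.12 (adjusted p = 4.75e-16). Ordered by mean, Hif1a in hyperoxia was 127 ± 38.3 FPKM in saline C57B, 95.7 ± 32.3 in ATG C57B, 70.5 ± 17.2 in ATG C3H and 53.4 ± 30.8 in saline C3H (SD, n = 6 each), and neighbours in this order overlapped. Egln1 changed by -0.73 ± 0.07 (adjusted p = 1.09e-10), Bnip3 by -0.60 ± 0.10 (adjusted p = 1.27e-06), Vegfa by -0.52 ± 0.12 (adjusted p = 0.000314) and Ndrg1 by 0.63 ± 0.10 (adjusted p = 1.25e-06).

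Epas1 was the only one of the 10 to pass the test of the response in ATG against saline mice, where 2.77% of all genes passed. In ATG mice it was 360, 504 and 604 FPKM in room air and 133, 205 and 348 in hyperoxia, and all 12 hyperoxia mice lay below the room-air range. The change was -1.23 ± 0.09 in ATG mice (adjusted p = 1.24e-14), against -0.68 in saline mice. The difference of the responses was -0.55 ± 0.12 (adjusted p = 0.0147), and it passed under 56 of 56 alternatives. Both airs entered it. Epas1 was 488 ± 78.5 FPKM in ATG and 415 ± 67.5 in saline room air, and 217 ± 73.6 and 272 ± 104 in hyperoxia (SD, n = 12 each). The room-air difference of 0.23 ± 0.09 did not pass by limma (adjusted p = 0.583). Tek, picked by its likeness to Epas1 over the same group means, gave -0.59 ± 0.14 in this difference (adjusted p = 0.0174), which is a description only. Of the 10 endothelial markers Pecam1, Tie1 and Tek passed as lower and Egfl7 as higher. Of 6 alveolar macrophage markers 4 passed as lower in this difference (Marco, Chil3, Ear2 and Siglecf), and of 6 glucocorticoid-responsive genes 3 did (Fkbp5, Per1 and Klf9), with list medians of -1.05 and -0.99 against 0.04 over all genes. The macrophage marker sum ranged from 280 to 1803 FPKM in saline hyperoxia and from 106 to 1652 in ATG hyperoxia, against 157 to 609 and 220 to 782 in room air, and no marker was at 0 throughout a group. The part of endothelial, macrophage and glucocorticoid-responsive genes in the Epas1 difference was not tested. Ankrd37 had values of 1.67, 3.21 and 6.65 FPKM in ATG hyperoxia, without the high mice seen after saline, and its difference of -0.86 ± 0.35 did not pass (adjusted p = 0.163). In ATG hyperoxia the neutrophil marker sum ranged from 159 to 2924 FPKM. C3HF 34 had this highest sum, with the highest Hif1a (103 FPKM) and Egln3 (3.82 FPKM) of the ATG C3H mice in hyperoxia. Of the ATG C57B mice in hyperoxia, C57BF 48 had the highest sum (1113 FPKM), Hif1a (160 FPKM) and Egln3 (2.61 FPKM).

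In room air the 10 genes were tested for ATG, strain and sex. None passed for ATG, where 0.0235% of all genes did by limma, with 1248 at an unadjusted p under 0.05. Hif3a gave 0.34 ± 0.11 (adjusted p = 0.556) and Epas1 0.23 ± 0.09 (adjusted p = 0.583). None passed between strains in saline room air, where 17.5% of all genes did, with 5117 at an unadjusted p under 0.05. Ankrd37 was 5.73 ± 1.57 FPKM in C3H and 3.18 ± 0.82 in C57B (SD, n = 6 each), a difference of 0.68 ± 0.35 (adjusted p = 0.181). With only the mice of the comparison in the fit, its adjusted p was 0.0292. Pdk1 gave -0.33 ± 0.15 for C3H minus C57B (adjusted p = 0.121), and it passed without C3HM 2 and with array weights. None passed between sexes in saline room air, where 11.3% of all genes did, with 4831 at an unadjusted p under 0.05. With weights for the quality of each library, 1 of the 10 passed between strains, where 7395 of all 16994 genes did. Between sexes 4 of the 10 then passed, where 7557 of all 16994 genes did. The Hif1a values of the strains in room air, 18.5 ± 5.20 FPKM in C3H and 17.4 ± 1.89 in C57B (SD, n = 6 each), differed by 0.04 (95% interval -0.32 to 0.40).

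Beyond the members, 15 genes of the HIF machinery were tested in saline hyperoxia, and 7 were higher and 4 lower. Of all genes tested, 32.4% were higher and 29.1% lower in this comparison. Arnt, the beta subunit, was 14.5 ± 2.47 FPKM in room air and 18.3 ± 1.46 in hyperoxia (SD, n = 12 each), a rise of 0.34 ± 0.06 (adjusted p = 9.95e-06). Cul2, the scaffold of the Vhl ubiquitin ligase, rose by 0.72 ± 0.07 (adjusted p = 2.8e-11), and Egln2, the remaining prolyl hydroxylase of this family, by 0.44 ± 0.12 (adjusted p = 0.00224). Vhl itself gave 0.05 (adjusted p = 0.601). Cited2, which competes with HIF for its coactivators, fell by 0.57 on the log2 scale (adjusted p = 2.32e-05), and Hif1an, the asparaginyl hydroxylase that blocks coactivator binding, fell by 0.22 (adjusted p = 0.0265). The balance of this list depends on the scaling, with 4 higher and 4 lower of 14 under median ratio scaling and 4 higher and 6 lower under quantile normalization.

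Of 31 other HIF target genes tested, 17 were higher and 7 lower, where 32.4% of all genes were higher and 29.1% lower. Their median was 0.26 on the log2 scale against 0.01 over all genes. The largest rises among them were in Adm, which encodes adrenomedullin (10.9 ± 6.64 to 121 ± 109 FPKM), Angptl4 (19.9 ± 11.7 to 109 ± 45.0), the lipid droplet protein gene Plin2 (89.0 ± 15.3 to 348 ± 96.5) and the endothelin gene Edn1 (18.1 ± 4.23 to 72.6 ± 37.5), as means with SD of 12 mice each. Their differences were 2.93 ± 0.21, 2.45 ± 0.16, 1.93 ± 0.09 and 1.81 ± 0.13 on the log2 scale. Slc2a1, the glucose transporter Glut1, rose by 1.81 ± 0.17 (adjusted p = 9.48e-12), and the glycolytic genes Hk2, Pfkfb3, Eno1, Pgam1, Ldha and Aldoa rose by 0.26 to 1.25.

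The largest falls among these targets were in Bnip3l, Zfp395, Mxi1 and P4ha1. Bnip3l, a relative of Bnip3 that also promotes mitophagy, fell from 59.1 ± 8.99 to 23.8 ± 5.55 FPKM (SD, n = 12 each), by 1.29 on the log2 scale (adjusted p = 3.19e-21). Zfp395 fell by 0.86, Mxi1, an antagonist of Myc, by 0.84, and P4ha1, a collagen prolyl hydroxylase, by 0.70. The counts were 16 higher and 7 lower without C3HM 1 and C3HM 3, 17 and 6 without C57BM 19 and C3HF 33, 16 and 10 under median ratio scaling and 15 and 10 under quantile normalization. Between strains, 3 of the 31 had a response that was higher in C3H minus C57B (P4ha1, Bnip3l and Mxi1). Another 6 were lower (Edn1, Adm, Slc2a1, Stc2, Pfkfb3 and Loxl2). Of all 16994 genes, 17.6% passed in this difference, 2252 as higher and 742 as lower. Edn1 rose by 1.02 in C3H and by 2.60 in C57B, a difference of -1.58 ± 0.26 (adjusted p = 7.92e-05). Pgk1, a classic target, lies on chromosome X and was listed at 0 in all mice.

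**Figure D4:**
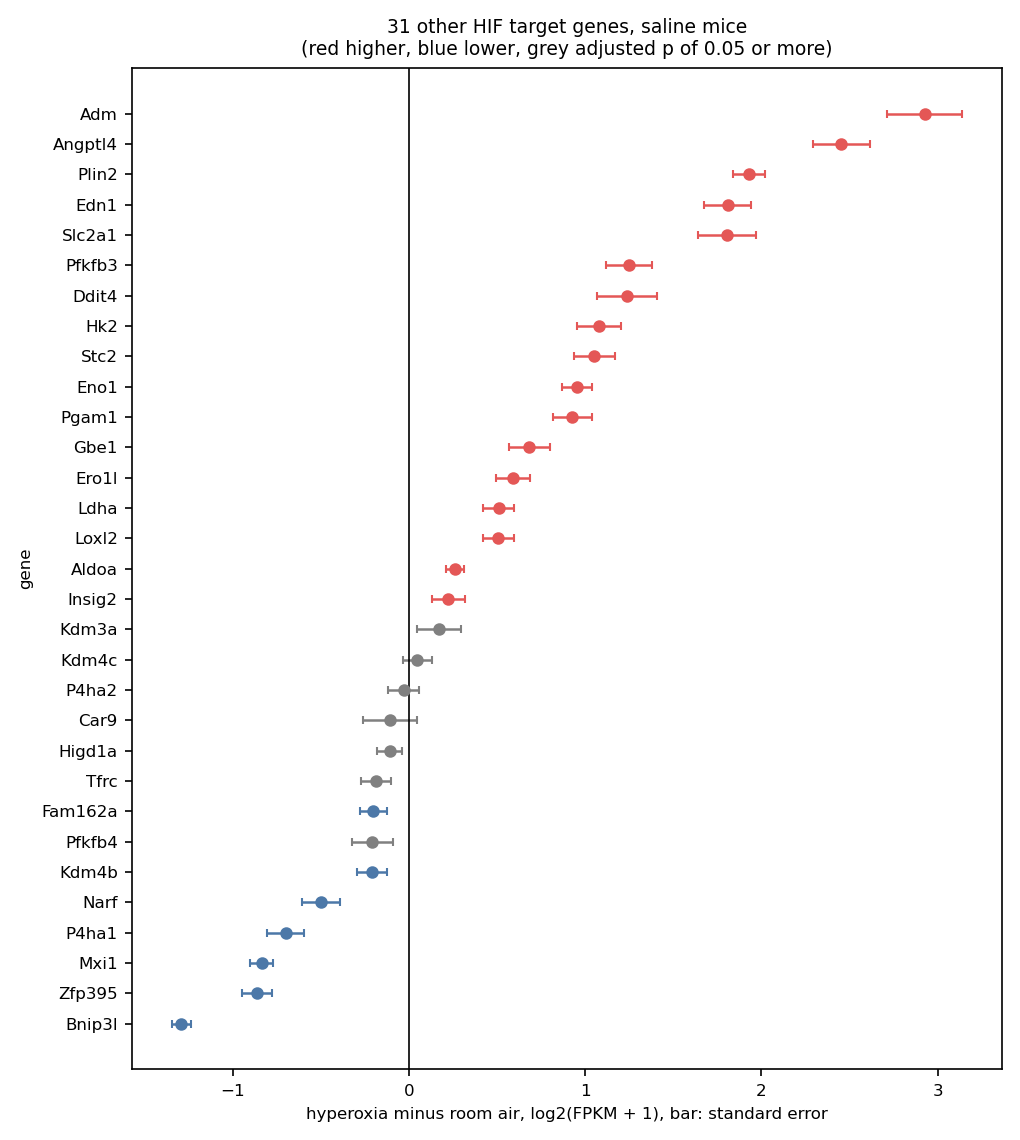
Hyperoxia minus room air on the log2(FPKM + 1) scale with the standard error from limma, for 31 other HIF target genes in 24 saline mice. Red points have an adjusted p under 0.05 and are higher, blue points are lower, and grey points did not pass. The values run from -1.29 for Bnip3l to 2.93 for Adm, with 17 red and 7 blue.

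The VEGF ligands and receptors also went both ways, with 3 of 8 higher and 4 lower, where 32.4% of all genes were higher and 29.1% lower. Pgf, the placental growth factor, rose from 2.03 ± 0.46 to 14.7 ± 7.52 FPKM (SD, n = 12 each), a difference of 2.22 ± 0.11 (adjusted p = 2.66e-19). Vegfc fell by 0.73, and the receptors Nrp1, Kdr and Flt1 fell by 1.29, 0.65 and 0.25 on the log2 scale. Vegfb and Nrp2 rose by 0.29 and 0.27, and under quantile normalization 1 of the 8 was higher and 4 lower. Of 7 relatives of the members, 2 were higher and 4 lower. Pdk4, which like Pdk1 restrains pyruvate dehydrogenase, rose by 1.58 ± 0.21 (adjusted p = 4.71e-08), while Pdk2 fell by 1.41 ± 0.10 (adjusted p = 6.6e-15) and Ndrg2 by 1.07 ± 0.15 (adjusted p = 8.11e-08). All 6 glucocorticoid-responsive genes tested were higher in saline hyperoxia, and their part in the values of the members was not tested.

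The genes most like each member over the 16 group means were chosen by Pearson r of log2(FPKM + 1) and are given as a description. Hif1a was followed most closely by Srm (0.994), Ddx21 (0.989) and Dis3 (0.989), and Egln1 by, among others, Limd2 (0.978) and Nfix (0.976). Vegfa was followed by Mal2 (0.959), Fancc (0.959) and Cat (0.951), and Ndrg1 by Gm17121 (0.960), Rtn4rl2 (0.959) and Spred1 (0.953). Bnip3 had Chst3 (0.927), Agtrap (0.915) and Sspn (0.905), and Hif3a had Usp53 (0.914), Wee1 (0.844) and Ccbe1 (0.844). Egln3 had Abtb2 (0.904), Rel (0.894) and Jak2 (0.890), Ankrd37 had Pald1 (0.845), Tpsb2 (0.838) and Lsamp (0.838), and Pdk1 had Gm16439 (0.852), Carf (0.834) and Gm26904 (0.834). The 16 means share strain, sex, air and injection, so they are not independent points.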

How the data were processed

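RNA from 48 lungs was sequenced by the authors, who per the labels and methods mapped the reads to mm10 with GSNAP, SAMtools and Cufflinks. The deposited FPKM values (1 per gene and mouse) are scaled by the authors to gene length and mapped fragments, so no count test was used. The annotation and the use of strand in counting are not given in the sources used here. Labels and methods differ on the instrument, and the series text gives ATG to all mice, so the saline mice were identified from their labels.

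The log2(FPKM + 1) values entered limma 3.58.1, run under R 4.3.3 (16 group means, eBayes with trend, Benjamini-Hochberg adjustment, threshold 0.05) for genes with at least 1 FPKM in at least 3 of 48 mice, after a check on simulated data. Akap5, listed at failed estimates in 7 mice, was left out. A total of 10 comparisons were made. Because all 10 members passed the filter, no permutation test for genes below it was run. Relative depth came from the densest ratio of low values between libraries, absolute depth is unknown, and precision comes from the spread between mice. Mice carry unique numbers and are not paired. Coordinates are from GENCODE M21 and promoters from RefSeq (GRCm38.p6). Members were named in every comparison, and other genes from lists of the HIF pathway, relatives, glucocorticoid response and 12 cell types (counts in each direction, at most 4 rises and 4 falls by size, plus members chosen after their values were seen). Some genes are not reported here. The members and lists were chosen with earlier results of these data known. The alternatives were a pseudocount of 0.1, no filter or a filter of 24 mice, median ratio scaling, quantile normalization, the mice of the comparison only, array weights, and leaving out each mouse.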

Additional observations from a re-analysis of the deposited data

Results flagged for a closer look

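Dixon's gap was computed for each gene in 8 sets of 6 mice (strain, injection and air), 80 sets in all, and 9 exceeded its 95% critical value. Chance alone flags about 1 set in 20 when values are normally distributed and sets are independent. Neither was shown for these FPKM values, and the same mice enter the sets of every gene, so the count is not a test. The highest mouse stood apart for Hif1a in C3HF 33 (saline hyperoxia, gap 0.711 of the range), C3HF 34 (ATG hyperoxia, 0.634) and C57BF 48 (ATG hyperoxia, 0.781). It stood apart for Egln3 in C3HF 33 (0.804) and C57BF 48 (0.91), and in C3HF 25 in saline room air (0.689). For Hif3a the highest mouse was C57BM 21 in saline hyperoxia (0.772) and C3HF 34 in ATG hyperoxia (0.707). The lowest Vegfa of the saline C3H mice in room air was in C3HM 3 (0.683).

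In saline mice the hyperoxia response differed between strains for Hif1a, by -1.36 on the log2 scale (C3H minus C57B). It also did for Epas1, by 0.71, each by limma's interaction. The response differed between ATG and saline mice for Epas1, by -0.55.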

How the results depend on the processing

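No called value of the 10 genes changed sign under an alternative, while some values that were not called did. Counts over all genes depended on several settings. Array weights gave 6516 called genes in the strain difference, 5928 in the sex difference, 2803 in the ATG difference, 1069 for ATG in room air, 7395 between strains and 7557 between sexes in room air, and 5, 1, 1 and 4 members in the strain difference, the sex difference, strain and sex in room air. With only the mice of the comparison, the strain difference had 1880 genes, the sex difference 6, strain in room air 1832 (1 member) and sex in room air 104. The sex difference had 162 genes with no filter, 461 with the stricter filter and 174 with median ratio scaling, and the ATG difference 313 with no filter. ATG in room air had 8 genes with no filter and 2 with median ratio scaling, and sex in room air 1258 with quantile normalization. Alternatives added after seeing the data left out C3HM 1 and C3HM 3 (strain difference 1953, sex difference 5, strain 1454 and sex 72 in room air) or C57BM 19 and C3HF 33 (sex difference 1387, with 1 member).

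Leaving out 1 mouse, called genes ranged from 43 to 2368 in the sex difference (0 to 1 members), from 243 to 1093 in the ATG difference, from 2 to 284 for ATG in room air, and from 538 to 4385 between sexes. Between strains in room air they ranged from 2150 to 4565 (0 to 1 members). The highest counts came without C3HM 2. The cause was not tested. No paired analysis was possible because each mouse has a number of its own. Depth and FPKM limit Hif3a and Egln3 most.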
